A study of Mus musculus with 27 samples.

Results

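The cytoplasmic RNA of mouse cortical neurons was compared with that of mouse embryonic stem cells across all genes. The comparison uses the 3 neuron and 3 stem cell libraries from the cytoplasmic fraction, 6 of 27 libraries in all. The stem cells (labelled mESC) are E14, an established male mouse line, grown on gelatin with the cytokine LIF. The neurons (labelled mCtx) are primary cortical cells kept 5 days in culture on poly-L-lysine. Their label code is E15D5, and primary cortical cultures can hold cell types other than neurons. No transgene, deletion or drug treatment is given for either group. The other libraries are neural progenitors and the chromatin and nucleoplasm fractions of each cell type, and the chromatin libraries of the same cell types were used here as a second reference. RNA longer than 200 nt was depleted of ribosomal RNA, made into stranded libraries and sequenced as 100 bp paired reads.

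The neuron libraries held 11249862 to 14438323 counts and the stem cell libraries 17335398 to 18640411. A count of 3 in a library, used as the floor for genes without reads, equalled 0.179 to 0.235 CPM (counts scaled to a common library size) in neurons and 0.162 to 0.182 CPM in stem cells. Spearman correlations of log2(CPM + 1) across genes were 0.994 between all pairs of neuron libraries. Among stem cell libraries they were 0.992 between libraries 2 and 3, 0.986 between 1 and 2, and 0.981 between 1 and 3. Stem cell library 1 therefore stood somewhat apart, and between the cell types the correlations were 0.639 to 0.649. Neuron library 3 also differed from the others in sex-linked genes, with 20.8, 11.6 and 1.64 CPM of the Y-linked gene Ddx3y and 7.0, 13 and 31.6 CPM of Xist in libraries 1, 2 and 3. The labels name the replicates as biological but not the animals or cultures, so the p-values measure the spread between replicate samples. That spread was pooled over the 9 groups of all 27 libraries.

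Embryonic stem cells keep an undifferentiated, rapidly cycling state through a network of transcription factors around Pou5f1 (Oct4), Sox2 and Nanog, supported by LIF signalling. Cortical neurons have left the cell cycle for good, extend axons and dendrites built on neuron-specific tubulins and microtubule-associated proteins, and assemble synapses from vesicle proteins, scaffolds and ion channels. The cytoplasmic fraction holds mature messenger RNA available to ribosomes, RNA in transit, RNA of the organelles and small structured RNAs. In bulk RNA of this kind, fewer cells of a type and less RNA per cell cannot be told apart.

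Most measured genes differed between the cell types. Of 18249 genes tested with edgeR's quasi-likelihood test, 14900 passed a Benjamini-Hochberg adjusted p of 0.05, or 81.6%. In neurons 7313 were higher (40.1%) and 7587 lower (41.6%), and the median log2 change (neurons minus stem cells) was -0.05. Changes below are on this log2 scale unless given as a fold, with the standard error where one follows. The counts of gene groups below are to be read against these shares. Changes past the test reached at least 2-fold in 12051 genes and at least 8-fold in 5412, of which 2914 were higher and 2498 lower in neurons. The 3 values of neurons and the 3 of stem cells did not overlap in 15020 genes. No read fell in any neuron library for 72 genes that averaged at least 10 CPM in stem cells, 65 of them protein-coding. The reverse held for 55 genes, 42 of them protein-coding.

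**Figure D1:**
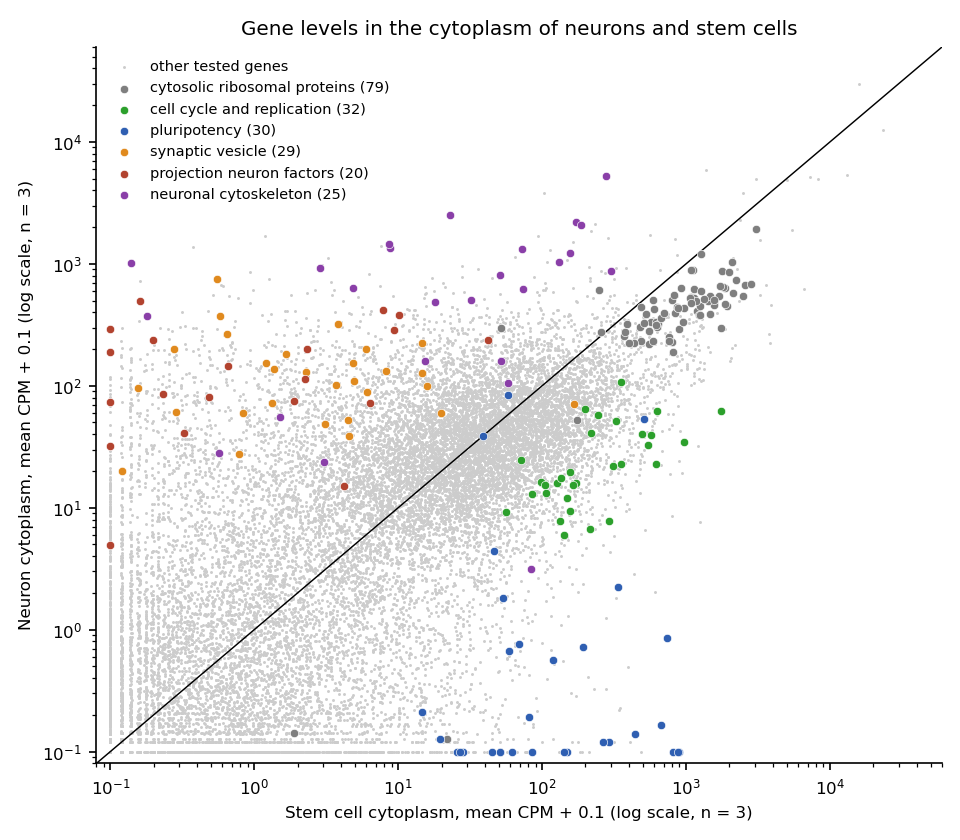
Mean CPM + 0.1 of each tested gene in stem cell cytoplasm (x axis) and neuron cytoplasm (y axis), both log scales, 3 libraries per mean, with 6 gene lists in colour and the other genes in grey. Pluripotency genes lie along the lower right and projection neuron factors along the upper left edge, while ribosomal protein genes lie just below the diagonal of equal levels.

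Because reads over introns are part of the deposited counts, the deposited TPM (a length-scaled abundance per transcript) were used as a check on the same 6 libraries. Here too the spread was pooled over all 27 libraries. After each library was rescaled by its median ratio, limma on log2(TPM + 1) was compared with the counts over 14236 genes. Of the 12367 of these that passed by counts, 11443 passed in the same direction by TPM and 77 in the opposite direction. The median of all genes moved from -0.05 to -0.16 with median-ratio scaling of the counts and to 0.17 with total-count scaling. It was -0.13 in rescaled TPM and -0.50 in TPM as deposited, so changes smaller than these shifts depend on the scaling.

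**Figure D2:**
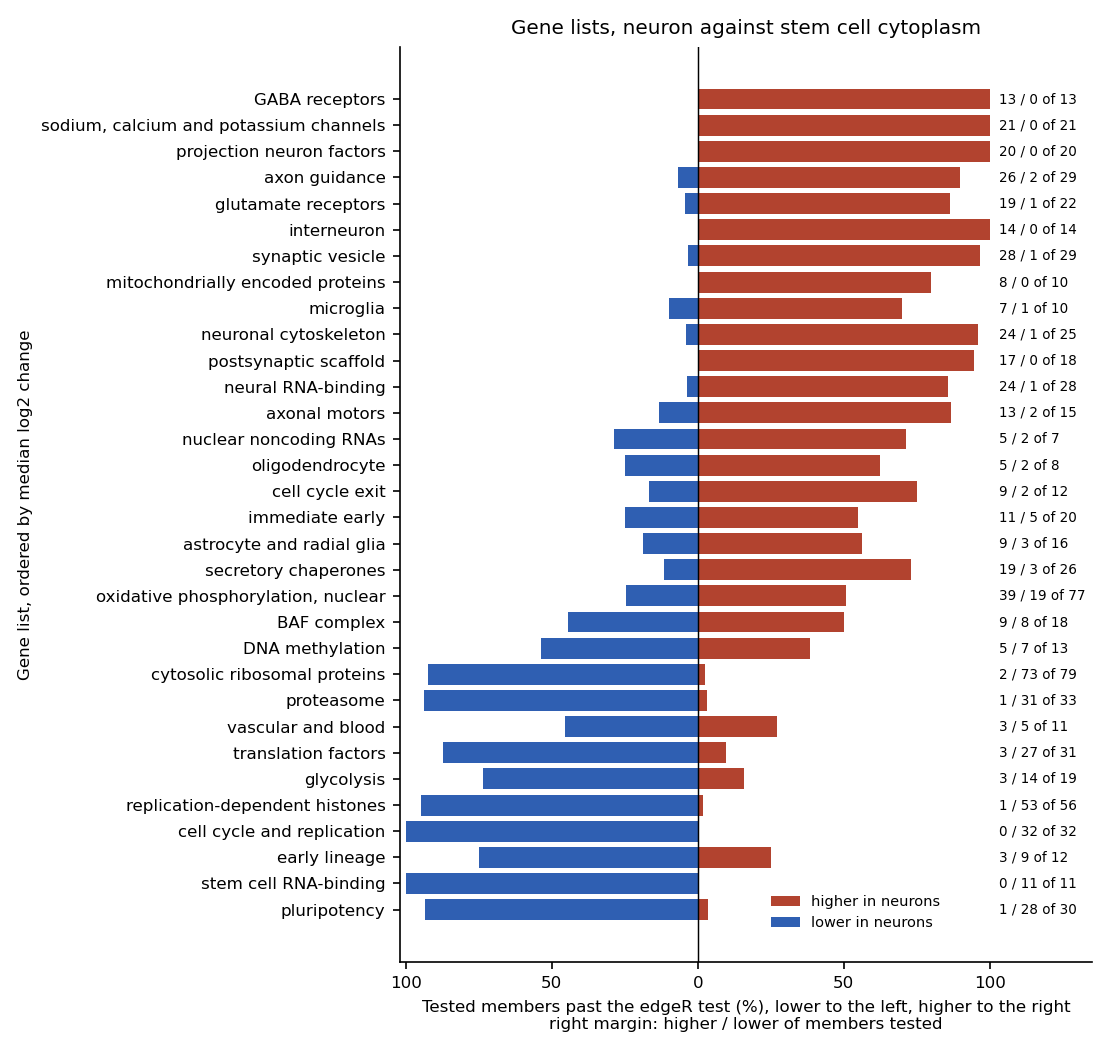
Share of the tested members of each gene list (%) past the edgeR test, lower in neurons to the left (blue) and higher to the right (red), with the numbers at the right edge; lists are ordered by their median log2 change. All genes together would give 41.6% to the left and 40.1% to the right, and the cell cycle list (0 higher, 32 lower) and the channel list (21 higher, 0 lower) each lie wholly on one side.

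The defining markers of each group were high in the libraries of that label. The summed level of 8 stem cell markers was 49.9 to 57 CPM in neuron libraries and 4582 to 4908 in stem cell libraries. In neurons Pou5f1, Zfp42 and Dppa5a had no read, and 1 of the 8, Sox2, reached 1 CPM. Pan-neuronal markers summed to 5369.9 to 5934 CPM in neurons and 324 to 328 in stem cells. Markers of excitatory cortical neurons summed to 933 to 945 CPM in neurons and 6.6 to 8.51 in stem cells, with Neurod2, Neurod6 and Tbr1 at 0 in all stem cell libraries.

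Markers of other cell types were present in the neuron libraries. Astrocyte and radial glia markers summed to 768 to 939 CPM there and 61.6 to 96.7 in stem cells. Fabp7, a fatty acid binding protein of radial glia, gave 599, 469 and 457 CPM in the 3 neuron libraries, and the glutamate transporter Slc1a3 gave 254, 231 and 234. The mature astrocyte filament gene Gfap was at 1.58 ± 0.728 CPM (SD, n = 3) in neurons and 2.55 ± 1.25 in stem cells and did not pass the test. Of the 16 listed genes of these cells 9 were higher in neurons, 3 lower and 4 did not pass (median 1.08).

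Oligodendrocyte lineage markers summed to 127 to 160.2 CPM in neurons and 5.63 to 10.3 in stem cells. The lineage factors Olig1 (89.1, 85.7 and 71.3 CPM) and Olig2 (54.4, 54.6 and 41.6 CPM) made up most of this, while the myelin genes Mog and Mag had no read in neurons. Microglia markers summed to 42.4 to 51.7 CPM in neurons and 55.2 to 76 in stem cells. The chemokine receptor gene Cx3cr1 alone gave 55.2, 75.9 and 72.8 CPM in the 3 stem cell libraries, where P2ry12, Csf1r and C1qb had no read. In neurons the complement genes C1qb and C1qc gave 3.6 and 4.76 CPM. Of the 10 tested genes of the microglia list 7 were higher in neurons, 1 lower and 2 did not pass. The list's median was 6.67, or 4.17 with genes without reads set at a bound from the floor of 3 counts. Endothelial, mural, fibroblast and blood markers summed to 9.55 to 10.2 CPM in neurons, with Cldn5 and Hba-a1 at 0, and to 39.3 to 57.7 in stem cells, where Pecam1 gave 41 CPM on average and Dcn and Hbb-bs were at 0. The part of these other cells in the results below was not tested.

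Most genes of the pluripotency network were almost absent from neuron cytoplasm. Of 30 listed genes 28 were lower in neurons, Lifr was higher and Il6st did not pass. The list's fitted median was -11.68, and -8.13 with the 12 genes without neuron reads set at their bound from the floor of 3 counts per library. Pou5f1, which encodes the core factor Oct4 (chr17:35506037-35510776 on the plus strand, mm10), had no read in any neuron library and 634, 809 and 973 CPM in stem cells, at least 4016-fold lower in neurons. Zfp42 (Rex1, a zinc-finger gene of naive stem cells) gave 937, 813 and 879.6 CPM in stem cells and no read in neurons, at least 4371-fold lower. Dppa5a, an RNA-binding protein gene of early embryos, was likewise without reads in neurons and at 919, 843 and 923 CPM in stem cells, at least 4463-fold lower. These genes separate the 6 libraries without overlap, as do 15020 of the 18249 genes tested.

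Nanog, a homeobox factor of the same network, had 1 read in a single neuron library and 302, 272 and 306 CPM in stem cells, a ratio of 13356-fold (95% counting interval 2397 to 527520.0). The orphan receptor gene Esrrb fell by 9.89 on the log2 scale, from 736 ± 202 to 0.752 ± 0.383 CPM. Sox2 fell by less, with 53, 56.2 and 49.5 CPM in neurons and 567, 492 and 468 in stem cells, a log2 change of -3.27 ± 0.15 (SE; adjusted p = 5.39e-17). Sox2 also acts in neural progenitors and glia, and it lies wholly within a longer noncoding gene on the same strand, so its count is uncertain. Receptors of the LIF pathway did not follow the network: Lifr changed by 0.56 by counts (-0.15 in TPM as deposited), and its partner Il6st was at 39 ± 3.27 and 38.7 ± 1.47 CPM in neurons and stem cells. The whole list took 0.0215% of counts in neurons and 0.696% in stem cells.

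Further genes at zero in neurons had the largest falls among protein-coding genes of at least 50 CPM. L1td1, an RNA-binding protein gene of stem cells derived from a transposon, gave 299, 496 and 664 CPM in stem cells, at least 2425-fold lower in neurons. Utf1, a chromatin-associated factor, was at least 713-fold lower and Dusp9, a phosphatase of the MAP kinase pathway, at least 914-fold. Triml2 was at least 649.7-fold lower, and Dppa4 and Dppa2 at least 739.7-fold and 424-fold. Stem cell library 1 gave the lowest of the 3 stem cell values for Pou5f1, L1td1, Utf1 and Dusp9.

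RNA-binding proteins typical of stem cells fell together, 11 of 11 with a median of -6.18, and 11 of 11 were lower by rescaled TPM. Lin28a, which blocks maturation of the let-7 microRNA, had 1 read in a single neuron library and 293, 483 and 441 CPM in stem cells, a ratio of 18457-fold (95% counting interval 3313 to 729008). Igf2bp1, which binds and stabilises many messenger RNAs, gave 19.6, 19.5 and 18.3 CPM in neurons and 715, 1058 and 1033 in stem cells (-5.61 ± 0.31, SE; adjusted p = 3.36e-15). Its relative Igf2bp3 moved by only -0.73, with 30.5 ± 0.493 CPM in neurons and 50.6 ± 7.76 in stem cells. Trim71, a let-7 target gene, fell by 7.9 and Esrp1, an epithelial splicing factor, by 7.8.

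Among 12 tested genes of early embryonic lineages 9 were lower and 3 higher in neurons. Epithelial genes gave the larger values: Cdh1 (E-cadherin) was at 0.0208 CPM in neurons and 99 ± 19.7 in stem cells, and the keratin gene Krt18 had no read in neurons and 30.3 ± 13.1 CPM in stem cells, at least 151-fold lower. The neuroectoderm factor Sox1 was higher in neurons by 3.9, or 4.66 without stem cell library 1 (23.3 ± 3.2 against 1.54 ± 1.05 CPM), and like Sox2 it overlaps another gene on its strand along its whole length. Fgf5 (2.97) and Eomes (0.85), the latter also a factor of cortical intermediate progenitors, were the other 2 higher genes, and Eomes did not pass in TPM as deposited (0.083).

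**Figure D3:**
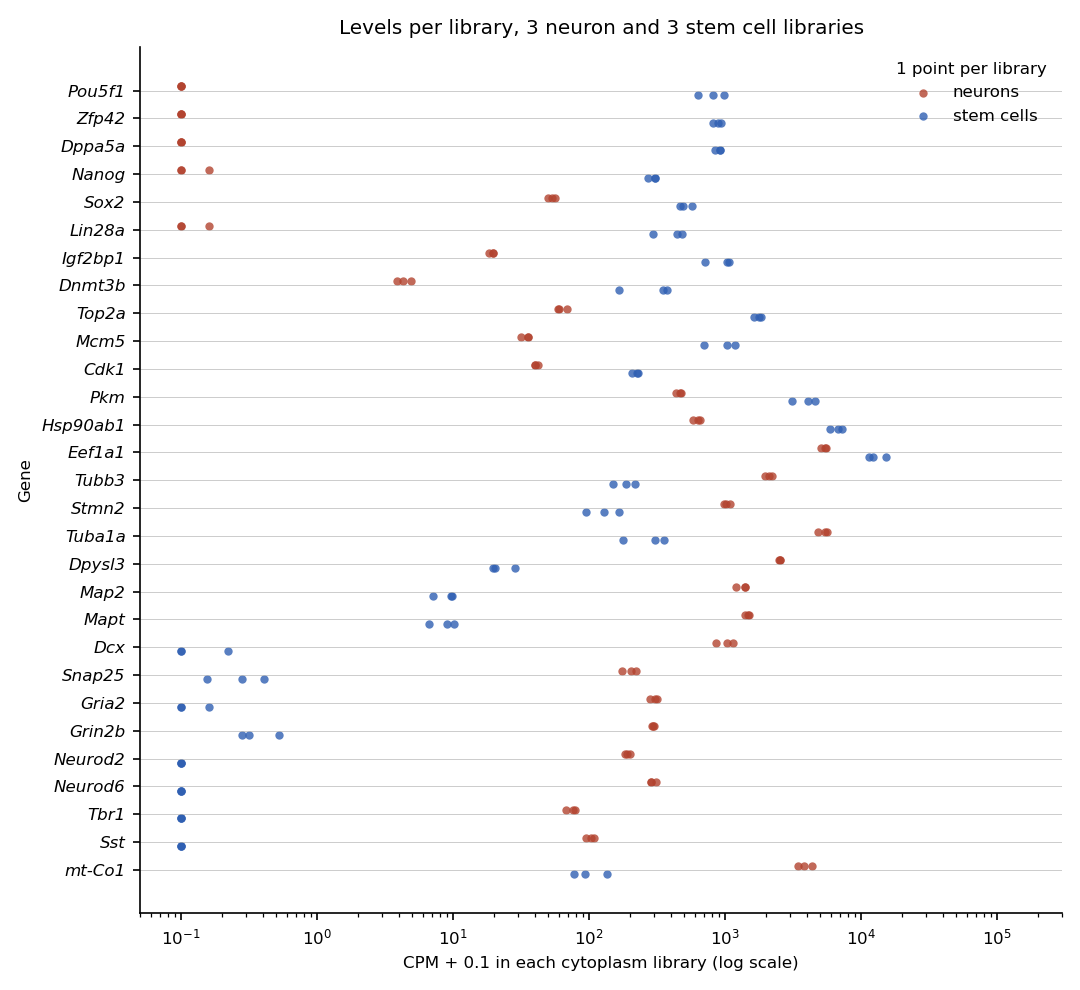
CPM + 0.1 (x axis, log scale) of selected genes in each of the 3 neuron and 3 stem cell cytoplasm libraries, 1 point per library. Pou5f1, Zfp42 and Dppa5a lie at the left edge (0 CPM) in neurons and Neurod2, Neurod6, Tbr1 and Sst in stem cells, while Eef1a1 and Sox2 differ by much less.

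Transcription factors of cortical projection neurons rose without exception in the list, 20 of 20 by counts and 20 of 20 by rescaled TPM (median 7.54, or 6.94 with the 5 genes at zero in stem cells set at their bound). Neurod6, a basic helix-loop-helix factor of glutamatergic neurons (chr6:55677818-55681263 on the minus strand), gave 308, 287 and 284 CPM in neurons and no read in stem cells, at least 1686-fold higher. Its relative Neurod2 (chr11:98325415-98329648 on the minus strand) gave 182, 199.7 and 188 CPM and no read in stem cells, at least 1093-fold higher. Tbr1, a T-box factor of deep layers and the subplate, gave 67.5, 75.8 and 79 CPM in neurons and none in stem cells, at least 426-fold higher. All 3 were without overlap between the groups, as were 15020 of the 18249 genes tested.

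Factors of different layers rose together. Bcl11b (Ctip2), a factor of corticospinal neurons, changed by 5.71, and Fezf2, which acts upstream of it, was at least 185-fold higher. The upper layer genes Cux1 and Cux2 rose by less, 2.51 and 3.53, with Cux1 already at 41.7 ± 1.41 CPM in stem cells. Mef2c, an activity-dependent factor, had 547, 444 and 490.1 CPM in neurons and 3 reads in all in stem cells, a ratio of 8541-fold (95% counting interval 2923 to 41418).

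Genes of inhibitory interneurons were also higher, 14 of 14 (median 5.72, or 5.51 with genes at their bound), at lower levels. Sst, which encodes the neuropeptide somatostatin, gave 108, 94.8 and 102 CPM in neurons and no read in stem cells, at least 585-fold higher. Gad1, which makes GABA, was at 38.8 ± 0.83 CPM in neurons and 6.01 ± 1.49 in stem cells (2.69 ± 0.2, SE; adjusted p = 2.26e-12). Slc32a1, the vesicular GABA transporter, rose by 6.85 to 16.5 ± 2.61 CPM. The 8 markers used to gauge these cells summed to 211 to 226 CPM in neurons and 7.02 to 11 in stem cells.

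The neuronal cytoskeleton took a large part of the neuron libraries. Of 25 listed genes 24 were higher in neurons and 1 lower (median 3.98), and the list's share of counts was 2.88% ± 0.0661 (SD, n = 3) against 0.167% ± 0.0166 in stem cells (a difference of 2.72 percentage points, or 0.407 in shares of TPM). Tuba1a, the main alpha-tubulin of developing neurons (chr15:98949841-98953551 on the minus strand), gave 4825, 5422 and 5643 CPM in neurons and 179, 355 and 304 in stem cells (4.25 ± 0.26, SE; adjusted p = 4.13e-14). Near-identical tubulin genes can share reads, so single tubulin values are uncertain. Tubb3, the beta-tubulin used to mark neurons, gave 1963, 2089.7 and 2207 CPM against 151, 186 and 218 and rose by 3.5, with another gene covering its whole span on the same strand.

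Microtubule-associated proteins rose further. Map2, which marks dendrites (chr1:66175273-66442583 on the plus strand), gave 1405, 1205 and 1399 CPM in neurons and 6.95, 9.75 and 9.51 in stem cells (7.26 ± 0.26). Mapt (tau), enriched in axons, gave 1398, 1479 and 1505 CPM against 10.1, 6.54 and 8.84 (7.42 ± 0.25). Dcx (doublecortin), a microtubule protein of migrating neurons (chrX:143855842-143933311 on the minus strand), gave 1139, 858 and 1029 CPM in neurons and 2 reads in a single stem cell library, a ratio of 26167-fold (95% counting interval 7244 to 216068). In each case the lowest neuron library exceeded the highest stem cell library by a wide margin. The collapsin response genes of the axon growth cone rose too, Dpysl3 from 22.7 ± 4.82 to 2519 ± 29.6 CPM (6.79) and Dpysl2 by 4.2, as did the growth cone gene Gap43 (8.39).

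Neurofilament genes were split. Nefl (3.39), Nefm (5.84, or 6.83 without stem cell library 1) and Ina (1.64) were higher in neurons, with Nefl covered by another gene on the opposite strand, whereas Nefh, the heavy subunit, was lower by 4.79 on the log2 scale (3.05 ± 0.661 CPM in neurons, 83.6 ± 18.4 in stem cells). Stmn2, a microtubule regulator of growth cones, was already at 166, 129 and 95.3 CPM in the stem cell libraries and rose by 2.98 to 1027 ± 51.1. Of 15 motor genes 13 were higher (median 2.83). The neuronal kinesins Kif5a (4.41) and Kif5c (3.42) rose and the broadly expressed Kif5b fell by 1.12. The dynein heavy chain Dync1h1 changed by -0.96, with 375, 399 and 391 CPM in neurons and 1203, 579 and 483 in stem cells, where library 1 was far above the others, and by -0.43 without that library.

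Synaptic genes rose with few exceptions. Of 29 genes of the vesicle cycle 28 were higher and 1 lower by counts (median 5.32), with the same numbers by rescaled TPM. Snap25, a membrane SNARE of vesicle fusion (chr2:136713453-136782428 on the plus strand), gave 219, 173 and 205 CPM in neurons and 0.0539, 0.178 and 0.303 in stem cells (10.1 ± 0.44, SE; adjusted p = 3.36e-17, or 10.69 without stem cell library 3). Syt4, a synaptotagmin, rose by 10.69 to 749 ± 69.8 CPM, and Syt1, the calcium sensor of fast release, by 9.64 to 376 ± 28.4 CPM. The vesicle transporter genes for glutamate, Slc17a7 and Slc17a6, were higher too. Slc17a7 rose by 4.02, and Slc17a6 gave 19.9 ± 1.22 CPM in neurons and 1 read in stem cells, a ratio of 1031-fold (95% counting interval 185 to 40739.5). Nsf, the ATPase that takes SNARE complexes apart in all cells, was the lower one, at 70.6 ± 2.83 CPM in neurons and 165 ± 19.1 in stem cells (-1.23).

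Postsynaptic scaffolds rose in 17 of 18 genes (median 3.68), with Baiap2 not passing at 43.8 ± 2.3 against 34.1 ± 11 CPM (it passed at 0.61 without stem cell library 1, and changed by -0.52 in TPM as deposited). Dlg4 (PSD-95) changed by 3.73 and its relative Dlg2 by 9.5 (10.43 without stem cell library 1). Camk2b, a kinase of the postsynaptic density, was at 512 ± 10.3 CPM in neurons and 39.4 ± 8.66 in stem cells, and Camk2a at 39.7 ± 1.71 and 1.06 ± 0.0258.

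Glutamate receptor genes were higher in 19 of 22 cases (median 6.83, or 6.34 with Grik1 at its bound). Gria2, an AMPA receptor subunit that limits calcium entry (chr3:80684936-80802791 on the minus strand), gave 314, 279.96 and 306 CPM in neurons and 1 read in a single stem cell library, a ratio of 15559-fold (95% counting interval 2793 to 614547). The NMDA receptor subunit gene Grin2b gave 297, 299 and 291 CPM in neurons and 0.215, 0.178 and 0.424 in stem cells (10.06 ± 0.29), while Grin2a, which is known to come up later in cortex, rose by 6.73 to 21.2 ± 1.25 CPM. Grin2c and Grin2d were at 0.531 and 1.35 CPM in neurons and did not pass.

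Grik3, a kainate receptor subunit with a long span (chr4:125490700-125714173 on the plus strand), went against the list by counts. It gave 135, 133 and 147 CPM in neurons and 457, 299.9 and 254 in stem cells, a log2 change of -1.29 ± 0.23 (SE; adjusted p = 1.45e-05). By rescaled TPM the same gene was higher in neurons by 2.17 (adjusted p = 1.19e-08), so its direction depends on the measure.

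Receptors for GABA and voltage-gated channels rose in all listed genes, 13 of 13 (median 8.37) and 21 of 21 (median 7.47). The GABA-B receptor gene Gabbr1 rose by 4.85 to 450.3 ± 11 CPM. Among sodium channel genes Scn2a, the early form, changed by 8.58 to 195 ± 18.4 CPM and Scn1a, a later one, by 7.48 to 25.5 ± 2.03 (6.89 and 8.11 without stem cell libraries 1 and 3).

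Axon guidance and adhesion genes were higher in 26 of 29 cases (median 6.53). Ncam1, a cell adhesion molecule of neurons, rose by 8.38 to 969 ± 70.01 CPM, and the semaphorin receptor gene Plxna4 by 9.58 to 523 ± 35.5. The netrin receptor gene Dcc rose by 9.55 (10.79 without stem cell library 3), while the ligand gene Ntn1 was lower, at 11 ± 0.849 CPM in neurons and 64.2 ± 37.9 in stem cells (-2.55, or -1.93 without stem cell library 3). The other lower gene was Nrp2 (-0.51), which did not pass with total-count scaling (-0.27), and Slit3 did not pass.

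Promoter sequences were read for these genes from RefSeq (build GRCm38.p6), in a window of 300 bases from 250 before to 50 after each gene's start. Many neuronal genes are known targets of the repressor REST, which binds an element whose first arm is TTCAGCACC. Read on both strands, these letters were found in 3 of 70 synaptic, receptor and channel genes with a promoter in the table (Grm2, Syn1 and Unc13a, of 103 listed) and in 0.433% of 27025 genes. They were in none of 27 cell cycle and 16 pluripotency promoters. A match is a description of the letters only. The stretches from Syn1, a synaptic vesicle coat protein gene that changed by 3.12 (chrX:20921102-20921168, minus strand, 250 to 184 bases before the start), and Grm2, a metabotropic glutamate receptor gene that changed by 7.12 (chr9:106656303-106656359, minus strand, 250 to 194 bases before the start), show the match in capitals.
Syn1: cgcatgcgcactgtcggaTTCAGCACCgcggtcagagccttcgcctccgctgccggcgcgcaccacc
Grm2: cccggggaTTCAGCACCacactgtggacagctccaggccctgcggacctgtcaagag

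RNA-binding proteins of neurons were higher in 24 of 28 cases (median 3.28). The neuronal Hu gene Elavl3 rose by 4.89 to 310.1 ± 3.03 CPM, the splicing factor Rbfox1 by 9.71 to 201 ± 16.4 and Celf2 by 6.67 to 531 ± 10.2. Srrm4, which drives inclusion of neuronal microexons, rose by 6.24 to 62.9 ± 4.35 CPM. Mbnl2 was lower (-0.92), and Celf1, Msi2 and Cpeb1 did not pass.

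Pairs of related genes, 1 taken as broadly expressed and 1 as neural, were compared for exchange between the cell types. Of 31 pairs the neural copy was higher in neurons in 25 and lower in 3, and the broad copy was lower in 21 and higher in 6. Both held in 15 pairs, and the neural copy's log2 change was above the broad copy's in 28. Exchanges of this kind are known for some of these pairs, which is why pairs were chosen, so the counts describe these pairs only. Not every second gene is known as a neural form, Pgam2 among them.

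The polypyrimidine tract binding proteins, splicing repressors known to switch when neurons form, were among the 15. Ptbp1 (chr10:79854427-79864771 on the plus strand) changed by -3.38 and Ptbp2 (chr3:119718742-119783388 on the minus strand) by 2.47. Per transcript length, Ptbp1 was at 8.24 ± 0.721 TPM (SD, n = 3) and Ptbp2 at 23.1 ± 0.288 TPM in neurons, against 135 ± 40.8 and 7.0 ± 1.83 TPM in stem cells, so the order of the copies was exchanged. The same exchange of order held for Actl6a and Actl6b, subunits of the BAF chromatin remodelling complex, at 3.94 ± 0.309 and 26.2 ± 1.92 TPM in neurons against 78.3 ± 24.9 and 0.0267 ± 0.0306 in stem cells. It held for the SNARE genes Snap23 and Snap25, at 2.19 ± 0.0404 and 42.1 ± 4.41 TPM in neurons against 12.3 ± 3.02 and 0.030 ± 0.010. The hexokinase genes Hk2 and Hk1 were at 0.373 ± 0.0321 and 11.7 ± 0.884 TPM in neurons against 51.5 ± 28.6 and 7.84 ± 0.359.

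In other pairs the neural copy rose without overtaking the broad one. The elongation factor gene Eef1a2 changed by 5.73 and Eef1a1 by -1.29, yet Eef1a1 stood at 1129.8 ± 92.9 TPM and Eef1a2 at 20.2 ± 0.50 TPM in neurons. Enolase 2, the neuron-specific form, rose by 2.64 and Eno1 fell by 3.11, with 5.36 ± 0.569 TPM for Eno2 and 38.5 ± 2.75 TPM for Eno1 in neurons. The copy taken as neural was lower for the glucose transporter Slc2a3 (-0.75), the phosphofructokinase Pfkp (-0.94) and the phosphoglycerate mutase Pgam2 (-5.91, or -9.77 without neuron library 2). In 3 pairs the broad copy's change was above the neural copy's: Stmn1 (3.2) against Stmn2 (2.98), Tmsb4x (3.09, or 3.76 without stem cell library 3) against Tmsb10 (1.76) and Pgam1 (-2.61) against Pgam2.

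**Figure D4:**
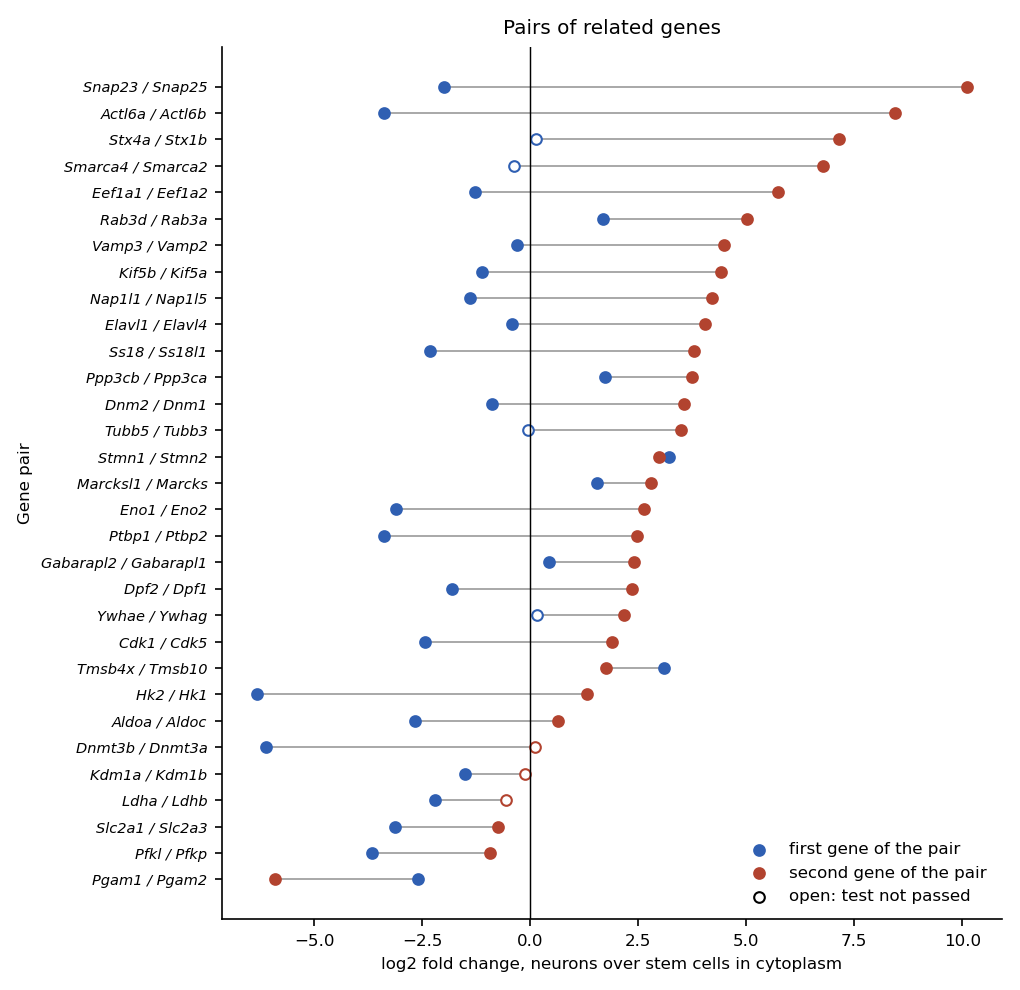
Log2 change in cytoplasm (neurons minus stem cells) of the broad (blue) and neural (red) copy of each of the 31 gene pairs, 1 pair per row; open points did not pass the test. In 28 rows the neural copy lies to the right of the broad one.

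The cell cycle and DNA replication genes were all lower in neurons, 32 of 32 by counts and 32 of 32 by rescaled TPM, with a median of -3.39. Top2a, the topoisomerase of dividing cells (chr11:98992943-99024189 on the minus strand), gave 68.1, 58.4 and 59.7 CPM in neurons and 1826, 1781 and 1634 in stem cells (-4.81 ± 0.15, SE; adjusted p = 3.24e-20). The helicase subunit gene Mcm5 (chr8:75109528-75128439 on the plus strand) gave 35.3, 35.7 and 31.5 CPM against 695, 1037 and 1178 (-4.83 ± 0.21). Ccne1, the cyclin that starts replication, changed by -5.23, and the origin licensing gene Cdt1 by -5.03, the latter within another gene on its strand.

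The smaller falls still left measurable levels in neurons. Cdk1, the kinase of mitosis, gave 39.6, 42.3 and 39.99 CPM in neurons and 205, 227 and 224 in stem cells (-2.43 ± 0.12). Pcna, which also serves DNA repair, was at 108 ± 8.98 CPM against 350.5 ± 86 (-1.7), Mki67 at 24.7 ± 4.12 against 71.5 ± 20.03 (-1.53) and Ccna2 at 64.3 ± 3.16 against 198 ± 15.2 (-1.63). Counts over whole spans include unspliced RNA. The part of dividing glial or progenitor cells in these levels was not tested, and the levels of astrocyte and radial glia markers are given above.

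Promoters of mitotic genes are known to carry paired CCAAT boxes, bound by NF-Y, and a cell cycle element with the letters TTTGAA. The CCAAT box, read on both strands, was found in 20 of 27 cell cycle genes with a promoter in the table, against 41.1% of all 27025 genes and 23 of 70 synaptic, receptor and channel genes. TTTGAA was in 9 of 27 against 20.2% of all genes. The E2F letters TTTCGCGC were in 4 of 27 (Cdk1, Mcm5, Mcm6 and Mcm7) against 0.374%, and TTTGGCGC in 5 of 27 (Cdt1, Mcm3, Mcm5, Mcm6 and Pola1) against 0.585%. The 110 bases before the start of 4 mitotic genes that fell show several matches each, with the NF-Y and cell cycle letters, on either strand, in capitals. The Ccnb2 stretch holds CCAAT only, although Ccnb2 is among the 9 genes with TTTGAA, which lies outside the stretch shown. Where a gene had several promoters, the one with the most matches is shown. They are Cdk1 (chr10:69352913-69353022), Ccnb2 (cyclin B2, chr9:70421555-70421664, log2 change -4.09), Cdc20 (an activator of the anaphase complex, chr4:118437344-118437453, -3.95) and Top2a (chr11:99024190-99024299), each on the minus strand of GRCm38.p6.
Cdk1: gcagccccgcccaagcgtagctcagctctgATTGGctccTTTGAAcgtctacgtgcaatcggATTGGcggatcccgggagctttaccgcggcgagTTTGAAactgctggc
Ccnb2: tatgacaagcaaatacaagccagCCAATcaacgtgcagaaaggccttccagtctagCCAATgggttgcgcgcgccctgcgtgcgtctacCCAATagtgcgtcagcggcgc
Cdc20: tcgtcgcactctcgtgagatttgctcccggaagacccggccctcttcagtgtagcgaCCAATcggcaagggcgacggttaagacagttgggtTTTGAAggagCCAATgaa
Top2a: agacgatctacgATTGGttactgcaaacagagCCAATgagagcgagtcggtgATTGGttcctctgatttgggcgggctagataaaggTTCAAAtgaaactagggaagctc

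Replication-dependent histone genes, whose messages lack a poly(A) tail and are made in S phase, were lower in 53 of 56 cases (median -2.41). Their share of counts was 0.506% ± 0.0462 in neurons and 2.56% ± 1.11 in stem cells, with 3.82, 2.1 and 1.75% in stem cell libraries 1, 2 and 3. Library 1 was far above the others, and without it the gap between the groups shrank from 2.05 to 1.42 percentage points. Hist1h4i was at 24.2 ± 3.36 CPM in neurons and 886 ± 478 in stem cells (-5.2). Hist2h2be, known to give a polyadenylated message in cells that no longer divide, was the higher one, at 9.31, 9.14 and 8.77 CPM in neurons and 0.592, 0.654 and 0.303 in stem cells (4.11). Near-identical histone genes share reads, so single values are uncertain.

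Genes tied to leaving the cell cycle were higher in 9 of 12 cases (median 1.76). Cdk5r1 (p35), which activates the neuronal kinase Cdk5, rose by 7.8 to 346 ± 13.8 CPM and Cdk5 itself by 1.9. The cell cycle inhibitor gene Cdkn1b (p27) rose by 2.04 and Cdkn2c by 3.92. Related inhibitor genes went the other way, Cdkn1a (p21) by -1.46 and Cdkn1c (p57) by -3.03. Ccnd2, a cyclin gene retained in parts of the forebrain, rose by 4.61 to 284 ± 21.1 CPM while Ccnd1 fell by 2.94.

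The protein synthesis machinery was lower per count in neurons. Ribosomal protein genes of the cytosol were lower in 73 of 79 cases (median -1.08), and their share of counts was 4.17% ± 0.199 against 8.11% ± 0.994. The exact permutation test of 3 against 3 libraries gave p = 0.1 for this share, the smallest this design allows. By counts Rpl29 (2.5) and Rps29 (1.3) were higher (6 genes were higher by rescaled TPM, and 69 of 79 lower), and Rpl31, Rpl37a and Rpl34 were among the 4 that did not pass. Rps27a fell by 2.57 and Rpl4 by 2.19. When tested against a 2-fold change in place of no change, 37 of the 79 were lower, against 5282 of all 18249 genes. Ribosomal protein genes have many processed pseudogenes, which can share their reads.

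Translation factors followed, with 27 of 31 lower (median -1.53). Eef1a1 (chr9:78478449-78489151 on the minus strand), which brings transfer RNA to the ribosome, gave 5053, 5527 and 5389.8 CPM in neurons and 15229, 11509 and 12328 in stem cells (-1.29 ± 0.18, SE; adjusted p = 2.54e-07). Eef2 was at 1898 ± 128 CPM against 5474 ± 1264 (-1.53), and Eif4ebp1, a repressor of cap binding, fell the most, by 5.35. Eef1a2 (5.73), Eif4g3 (1.92) and Eif4g2 (0.46) were higher. Eif4g2, which works at selected messages, was at 1191 ± 82.1 CPM in neurons and 866 ± 88.3 in stem cells, but changed by -0.36 in TPM as deposited.

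Among the genes with the largest falls in CPM were the heat shock protein genes Hsp90ab1 and Hsp90aa1, chaperones of the cytosol. Hsp90ab1 (chr17:45567775-45573271 on the minus strand) gave 584, 632 and 654 CPM in neurons and 5905, 6731 and 7229 in stem cells (-3.41 ± 0.18). Hsp90aa1 was at 225 ± 44.2 CPM against 3832 ± 689 (-4.09) and Npm1, a nucleolar protein of ribosome assembly, at 266 ± 46.9 against 3788 ± 641 (-3.83). Proteasome subunit genes were lower in 31 of 33 cases (median -1.23), with Psmd12 falling by 2.7. When tested against a 2-fold change, 18 of the 33 were lower, against 5282 of all 18249 genes. Psmd9, an assembly factor, was higher by 0.4 by counts, did not pass without stem cell library 1 (0.31) or with DESeq2 (0.28) and changed by -0.52 in TPM as deposited.

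Glycolysis genes were lower in 14 of 19 cases (median -2.25). Pkm (pyruvate kinase) gave 434, 469.9 and 462 CPM in neurons and 3116, 4078 and 4553 in stem cells (-3.1 ± 0.2), Gapdh fell by 2.25 and Hk2, the hexokinase of proliferating cells, by 6.31. The higher genes were Hk1 (1.32), Eno2 (2.64) and Aldoc (0.64), forms known from brain, of which Aldoc is also an astrocyte gene and did not pass in TPM as deposited (0.046). Pfkm and Ldhb did not pass.

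Nuclear genes of oxidative phosphorylation were mixed, 39 of 77 higher and 19 lower (median 0.29), and 27 higher and 27 lower by rescaled TPM. By complex, 22 of 37 NADH dehydrogenase genes rose and 5 fell, and 8 of 11 cytochrome oxidase genes rose and 1 fell. Of 16 ATP synthase genes 5 rose and 7 fell, and of 9 cytochrome bc1 genes 3 rose and 5 fell. Small subunits such as Ndufs5 (3.36), Uqcrq (1.86) and Cox6b1 (1.81) rose, whereas Ndufs1 (-2.3), Sdha (-1.92), Uqcrc1 (-1.9) and Atp5a1 (-1.72), catalytic or core subunits, fell. These examples were chosen after their values were seen, and the split was not tested. When tested against a 2-fold change, 10 of the 77 genes were higher, against 5373 of all 18249 genes.

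Most protein-coding transcripts of the mitochondrial genome were higher in neuron cytoplasm. Of 10 tested protein genes of the list 8 rose and the others did not pass (median 5.31). mt-Co1, a cytochrome oxidase core subunit (chrM:5328-6872 on the plus strand), gave 3408, 3797 and 4325 CPM in neurons and 136, 93.3 and 77.6 in stem cells (5.23 ± 0.29). The ribosomal RNA gene mt-Rnr2 overlapped between the groups, at 3219, 2199 and 5911 CPM in neurons and 3225, 2419 and 1812 in stem cells, and did not pass. mt-Rnr1 changed by 1.5 but did not pass without neuron library 3 (0.38) or in rescaled TPM (0.84). The protein genes together took 0.646% ± 0.0566 of counts in neurons and 0.0137% ± 0.00431 in stem cells. In the nucleoplasm fraction the same genes took 1.45% ± 0.078 and 1.85% ± 0.0168, and on chromatin 0.0872% ± 0.00826 and 0.123% ± 0.0343. In stem cells the share was thus lowest in the cytoplasmic libraries. Whether fractionation of mitochondria differed between the cell types was not tested.

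Genes of the secretory pathway's chaperones and translocon rose in 19 of 26 cases (median 1.05). Calr (calreticulin) was at 414 ± 17.7 CPM in neurons and 127 ± 34.1 in stem cells (1.71), Hspa5 (BiP) at 201 ± 11.5 against 66.1 ± 18.5 (1.6) and Pdia3, a disulphide isomerase, at 113 ± 9.66 against 15.5 ± 2.55 (2.86). The lower genes were Sec61g (-0.6), Sec61b and Ostc. Sec61b lost its call without stem cell library 3 (-0.42), and Ostc lost it when any library but stem cell library 1 was left out (-0.40 to -0.23). These messages are translated at the endoplasmic reticulum. Their share was 0.441% ± 0.00649 in neuron and 0.20% ± 0.0209 in stem cell cytoplasm, against 0.398% ± 0.0202 and 1.06% ± 0.16 in nucleoplasm, so the order was reversed there. In shares of TPM the cytoplasmic difference was -0.0015 percentage points, against 0.242 in shares of counts, and 12 of these genes were higher in TPM as deposited.

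DNA methylation genes were lower in 7 and higher in 5 of 13 cases. Dnmt3l, the cofactor of new methylation in germ and stem cells, had no read in neurons and 247, 184 and 202 CPM in stem cells, at least 1053-fold lower. Dnmt3b gave 4.81, 3.76 and 4.15 CPM in neurons and 166, 375 and 351 in stem cells (-6.13), with stem cell library 1 lowest, while Dnmt3a was at 169 ± 3.75 and 156 ± 60.4 CPM and did not pass by counts, although it changed by -0.77 in rescaled TPM. The maintenance genes Dnmt1 (-2.61) and Uhrf1 (-3.65) fell. Among the TET dioxygenases Tet1 fell by 3.2 and Tet3 rose by 3.82.

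Subunits of the BAF remodelling complex were higher in 9 and lower in 8 of 18 cases (median -0.09). Those known to belong to the neuronal form rose: Actl6b (8.44), Ss18l1 (3.79), Dpf1 (2.36), Dpf3 (2.95) and Smarcc2 (3.15). Those of the form in dividing cells fell: Actl6a (-3.38), Ss18 (-2.31) and Dpf2 (-1.81). Of the ATPase genes Smarca2 rose by 6.76, from 1.9 ± 0.36 to 208 ± 8.22 CPM, and Smarca4 did not pass at 281 ± 20.3 against 368 ± 82.6. Smarca4 passed as lower without stem cell library 1 (-0.54) and in rescaled TPM (-0.69).

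Noncoding classes moved differently. Of 460 antisense genes 227 were higher and 80 lower, of 300 processed transcripts 165 and 68, and of 315 long intergenic RNAs 134 and 94. Processed pseudogenes were higher in 54 and lower in 204 of 445 and took 0.0756% ± 0.00254 of counts in neurons against 0.418% ± 0.0471 in stem cells, and small nucleolar RNA genes higher in 22 and lower in 174 of 309. The reads of pseudogenes can come from their parent genes and those of small nucleolar RNAs from their host introns. The processed pseudogenes that fell most included Rps13-ps1 and Gm10020, at least 944-fold and 424-fold lower.

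Single noncoding RNAs spanned a wide range of levels. Malat1, a nuclear long RNA, gave 6737, 4848 and 6144 CPM in neuron cytoplasm and 1557, 1339 and 1254 in stem cell cytoplasm (2.09 ± 0.27, SE; adjusted p = 8.82e-08), and Meg3, an imprinted long RNA, rose by 3.62 to 299 ± 39.7 CPM. Pantr1, a long RNA next to a neural Pou factor gene, had no read in stem cells and 76.9, 86.2 and 80.8 CPM in neurons, at least 468-fold higher, and Dlx6os1, an interneuron long RNA, was at least 167-fold higher. Neat1 fell by 1.91 to 5.18 ± 1.11 CPM. Of the small structured RNAs, Rn7sk, which holds the elongation factor P-TEFb inactive, gave 31305, 31978 and 27067 CPM in neurons and 17725, 18451 and 11349 in stem cells (0.93). Rpph1, the RNA of ribonuclease P, gave 12665, 12436 and 12443 against 25419, 23800.4 and 20962 (-0.9), and was higher by 0.7 in rescaled TPM, so its direction depends on the measure. Rmrp, the RNA of a related ribonuclease, fell by 0.72 and did not pass without stem cell library 1 (-0.61) or with total-count scaling (-0.49), and Rn7sk did not pass in rescaled TPM (0.72). Together these 3 RNAs took 5.44% ± 0.363 of counts in neuron cytoplasm and 4.61% ± 0.753 in stem cell cytoplasm. In shares of TPM this difference was -0.364 percentage points. In nucleoplasm they took 0.356% ± 0.0167 of counts in neurons and 3.49% ± 1.18 in stem cells. On chromatin they took 0.183% ± 0.0463 and 2.10% ± 0.406. Whether fractionation of these RNAs differed between the cell types was not tested.

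Longer genes were more often higher in neurons. Among 506 protein-coding genes with a span of 300 kb or more, 402 were higher and 66 lower (79.4% and 13.0%), with a median log2 change of 3.97. In the class of 100 to 300 kb 56.5% of 1758 were higher (median 0.97). The trend was not particular to cytoplasm: on chromatin the median changes were 3.75 at 300 kb or more and 0.87 at 100 to 300 kb. Of 4877 genes with 10 to 30 kb 35.2% were higher and 50.1% lower (median -0.42). Genes of 100 kb or more took 17.6% ± 0.676 of counts in neurons and 8.34% ± 0.21 in stem cells. On chromatin they took 66.1% ± 1.25 of counts in neurons and 29.0% ± 2.08 in stem cells. In shares of TPM the cytoplasmic difference was 0.180 percentage points, against 9.30 in shares of counts. Many genes of synapse and adhesion are long, and introns add to these counts. By rescaled TPM 83.0% of the tested genes with 300 kb or more were higher, with a median of 1.5.

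**Figure D5:**
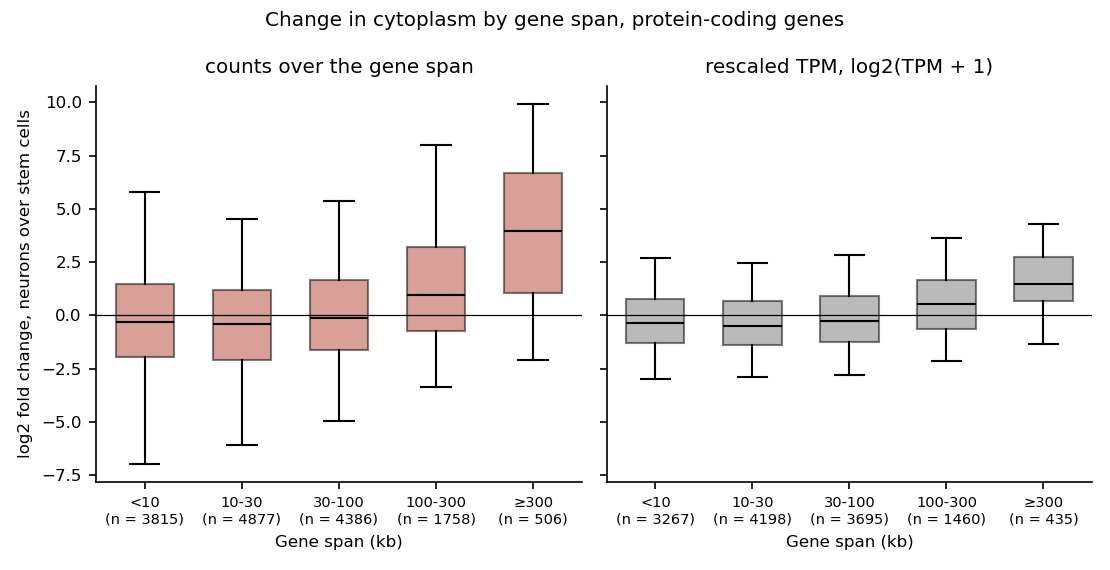
Log2 change in cytoplasm (neurons minus stem cells, y axis) of protein-coding genes by class of gene span in kb (x axis), by counts over the span (left) and by rescaled TPM (right); boxes are the quartiles, the line in each the median, and whiskers reach the percentiles 5 and 95. The medians by counts rise from -0.29 under 10 kb to 3.97 at 300 kb or more, and those by rescaled TPM from -0.34 to 1.5.

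The change in cytoplasm was set against the change on chromatin between the same cell types, to ask which RNAs differed more in one fraction than in the other. Of 18249 genes the difference (cytoplasm change minus chromatin change) passed edgeR's quasi-likelihood test in 9158, or 50.2%, positive in 5936 (32.5%) and negative in 3222 (17.7%), with a median of 0.42. This split depends on scaling: the median moved to 0.15 with median-ratio scaling, to 1.43 with total-count scaling and to -0.23 in rescaled TPM. List medians are therefore given relative to the median of all genes in the same fit, with the range over median-ratio scaling, total-count scaling and rescaled TPM in parentheses.

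Ribosomal protein genes stood at 1.21 (1.2 to 1.42) relative to all genes on the log2 scale. Their change on chromatin had a median of -2.83 against -1.08 in cytoplasm, and the difference passed as positive in 75 of 79. Secretory chaperones stood at 1.3 (1.29 to 1.63), with 23 of 26 positive and medians of -0.74 on chromatin and 1.05 in cytoplasm. Synaptic vesicle genes stood at 1.72 (1.48 to 1.74), with 19 of 29 positive and medians of 3.1 on chromatin and 5.32 in cytoplasm. Snap25 was among them, with 5.78 on chromatin (difference 4.31, adjusted p = 1.70e-06). Mitochondrially encoded protein genes stood at 3.92 (3.91 to 4.53), with 7 of 10 positive.

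Other lists lay below the median of all genes. Stem cell RNA-binding genes stood at -2.22 (-2.19 to -1.47), proteasome genes at -0.98 (-0.99 to -0.65) and cell cycle genes at -0.92 (-1.2 to -0.9). The difference passed as negative in 6 of 11, 17 of 33 and 13 of 32 of these genes, and as positive in 0, 1 and 3. With total-count scaling 4, 2 and 1 were negative and 0, 18 and 14 positive. BAF subunits stood at -0.99 (-1.0 to -0.3), with 9 of 18 negative and 3 positive, or 3 negative and 5 positive with total-count scaling. Igf2bp1 changed by -3.52 on chromatin and -5.61 in cytoplasm, a difference of -2.1 (adjusted p = 3.07e-05).

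Among genes of at least 50 CPM the most negative differences included Mov10, an RNA helicase gene (chr3:104794836-104818563 on the minus strand). Its cytoplasmic level was 3.44, 2.45 and 3.29 CPM in neurons and 169, 165 and 182 in stem cells, a log2 change of -5.82 ± 0.18 (SE), while on chromatin it changed by -0.99 (difference -4.83, adjusted p = 8.08e-15). The phosphodiesterase gene Pde4d, with one of the longer spans (chr13:108449948-109953461 on the plus strand), gave 64.7, 59.2 and 62.5 CPM against 494, 425 and 438 in cytoplasm (-2.86) and changed by 1.46 on chromatin, but by rescaled TPM it was higher in neuron cytoplasm by 1.28. Lrrc4c, a synaptic adhesion gene (chr2:96318169-97631666 on the plus strand), was higher in both fractions, by 5.85 in cytoplasm and 10.1 on chromatin, although its difference was 0.47 in rescaled TPM. At the other end Tbr1 and Neurod2 gave fitted differences of 6.55 and 5.9, values that depend on the prior count because stem cell cytoplasm had no read. In TPM as deposited the difference of Tbr1 was -0.71.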

How the data were processed

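Total RNA of 3 cell types and 3 fractions was sequenced in 27 libraries, and the 6 cytoplasmic libraries of neurons and stem cells, with the chromatin libraries of both, are reported. The authors deposited whole-number read counts per gene. The chromatin columns are also whole numbers, although the unit expected count is recorded for the deposited chromatin columns because a format check read their abbreviation as chromosome. The deposited count table's length equals the gene span for 37332 of 37332 genes, so reads over introns are included. The authors also deposited TPM for 53379 genes. Per the submitters' processing notes STAR, featureCounts, kallisto and mm10 were used. Versions, strand setting and multi-mapping rules are not given in the sources used here, so antisense, overlapping and near-identical genes are uncertain. GENCODE names matched 35533 genes by ID.

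All libraries were fitted in edgeR 4.0.16 (R 4.3.3) with 9 group means, trimmed-mean scaling and the default low-count filter (18249 genes, 18 residual degrees of freedom), and contrasts were tested by quasi-likelihood with Benjamini-Hochberg adjustment at 0.05. CPM were scaled by effective library size. Where a group had no read, its fold rests on a floor of 3 counts per library, and for totals of 1 to 3 counts a ratio with a 95% interval is given. Both cover counting error only. TPM were tested with limma 3.58.1 on log2(TPM + 1) at a mean of at least 0.5 TPM, as deposited and after median-ratio rescaling, which understates the change of low genes. Shares were compared by an exact two-sided permutation test. The methods were tested on simulated data.

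Alternatives were DESeq2 1.42.0, median-ratio and total-count scaling, trimmed means without mitochondrial, histone and structured RNA genes, no filter, only the compared groups, a 2-fold null, the replicate number as a block, a pseudocount of 0.1 and each library left out. Rescaled TPM were added after seeing the data. Same-numbered neuron and stem cell cytoplasm libraries did not deviate together. Whether same-numbered libraries of different fractions came from the same culture was not tested, and the main fits treated them as independent. Named genes are the members of the gene lists and pairs, the 12 protein-coding genes per direction with the largest log2 change at 50 CPM or more, 6 noncoding genes at 20 CPM, and 8 each by CPM difference and by difference from chromatin. The comparison, its lists and pairs were chosen with earlier results of these data known. Some genes of the lists and 1 pair are not reported here. Promoters came from RefSeq tables. Figures were drawn with matplotlib 3.10.9.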

Additional observations from a re-analysis of the deposited data

Results flagged for a closer look

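In each of the following genes the change between neurons and stem cells differed between cytoplasm and chromatin by edgeR's interaction test, and they are the 8 largest differences in each direction at 50 CPM or more. Values are the cytoplasmic change minus the chromatin change on the log2 scale.

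The negative differences were led by pseudogenes and small genes. Ftl2-ps, a ferritin pseudogene, gave -8.13 (adjusted p = 8.75e-04), Mir692-2 -7.21 and Gm12260 -4.94 (adjusted p = 0.0349). All 3 share their whole span with another gene on the same strand. Gm12260 lost its call in 4 of 12 fits that left out a library, namely each of the 3 neuron chromatin libraries in turn and neuron cytoplasm library 1, with values of -5.06 to -4.55, and Mir692-2 without neuron chromatin library 2 (-6.49). Among protein-coding genes Mov10 gave -4.83 (adjusted p = 8.08e-15) and Pde4d -4.33 (adjusted p = 5.67e-16). The difference was -4.25 for Lrrc4c and -3.9 for Sgk1, a kinase gene induced by steroids and stress, which fell by 2.68 in cytoplasm and changed by 1.21 on chromatin. Without neuron cytoplasm library 1 the values were -10.03 for Ftl2-ps and -9.12 for Mir692-2, and without stem cell cytoplasm library 1 that of Gm12260 was -3.74. Without stem cell chromatin library 1 they were -8.87, -7.84 and -6.24 for Ftl2-ps, Mir692-2 and Gm12260. With total-count scaling Gm12260 gave -3.94 and with only the compared groups -5.2, neither past the test. An unnamed gene, ENSMUSG00000090828, gave -3.94.

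The positive differences included neuronal factors without reads in stem cell cytoplasm. These were Neurod2 with 5.9 (adjusted p = 0.00826), Tbr1 with 6.55 and Sst with 7.2 (adjusted p = 0.0146). Their fitted values depend on the prior count. Without stem cell chromatin library 1 the value of Neurod2 was 3.02, and without stem cell chromatin library 2 that of Sst was 5.55, neither past the test. Tbr1 gave 5.91 without stem cell chromatin library 2, and mt-Rnr1 7.38 without neuron cytoplasm library 3 and 7.73 without stem cell chromatin library 1, where mt-Rnr2 gave 6.27. Of the mitochondrial ribosomal RNA genes mt-Rnr1 gave 8.51 and mt-Rnr2 6.97, with 3219, 2199 and 5911 CPM of mt-Rnr2 in neuron cytoplasm and 3225, 2419 and 1812 in stem cell cytoplasm, so that their changes on chromatin (-7.01 and -6.37) made most of the difference. Gm22133, a small RNA gene inside another gene on its strand, gave 8.6 (adjusted p = 2.56e-16).

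In 2 genes the cytoplasm libraries varied widely, with library 2 lowest in both neurons and stem cells. Il31ra gave 169.98, 4.18 and 912 CPM in the neuron libraries and 17.2, 2.68 and 17.6 in the stem cell libraries, and its difference was 5.56 (adjusted p = 0.00266), or 3.5 without neuron cytoplasm library 3 and 4.84 without stem cell chromatin library 1. In TPM as deposited it was 0.068 and did not pass. Gm23935 gave 1849, 87.1 and 1939 CPM against 105, 21.5 and 211, and its difference was 5.67 (adjusted p = 0.00161). It was 4.78 without stem cell chromatin library 1, 6.56 without neuron chromatin library 3 and 6.52 without stem cell cytoplasm library 3, and did not pass in TPM without a filter (3.55).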

How the results depend on the processing

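In cytoplasm 14532 to 14808 genes passed when each of the 6 libraries was left out, with 7141 to 7325 higher and 7391 to 7493 lower, and no count of a gene list moved by more than 1.5 times. For the difference from chromatin 8626 to 9349 passed, 5613 to 6190 positive and 2943 to 3291 negative. With the replicate number as a replicate block 14990 and 9429 genes passed. No other count changed by more than 1.5 times under the replicate block. Across genes, same-numbered neuron and stem cell cytoplasm libraries did not deviate together (correlations -0.038 to 0.050). In Il31ra and Gm23935, however, library 2 was lowest in both cell types. Cytoplasm and chromatin libraries were not compared in this way.

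In TPM as deposited 4744 genes (4861 with a pseudocount of 0.1) were higher in neuron cytoplasm. For the difference from chromatin 18856 genes passed in TPM as deposited, 16292 with the pseudocount of 0.1, 20895 without a filter and 17141 in rescaled TPM, with 14759, 12774, 15914 and 10694 of them negative and 3518 positive with the pseudocount of 0.1. Total-count scaling gave 10994 positive and 730 negative, and a test against a 2-fold change gave 3905, of which 2951 and 954. The cause was not tested.

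Of the lists, by some TPM settings early lineage had 5 of 8 tested members lower and interneuron 9 of 9 higher. Oligodendrocyte had 3 of 5 higher (3 of 10 without a filter). Vascular had 2 of 3 lower (3 of 6 by counts with only the compared groups). Oxidative phosphorylation had 7 to 8 higher (8, 8 and 7), mitochondrially encoded 13, secretory chaperones 11 to 12 (12, 12 and 11), immediate early 5, 5 and 7, nuclear noncoding 3 and imprinted 4, 4 and 5. Against a 2-fold change 37 ribosomal protein and 18 proteasome genes were lower, and 10 oxidative phosphorylation and 12 chaperone genes higher. Of all 18249 genes 5282 were lower and 5373 higher by that test. In shares of TPM the differences in percentage points were 0.1803 for long genes, -5.387 for ribosomal proteins, -3.569 for histones, 0.5479 for mitochondrial proteins, -1.428 for processed pseudogenes, -0.3139 for pluripotency and 0.4073 for the cytoskeleton. Reversed were Rn7sk, Rmrp and Rpph1 (-0.3645) and secretory chaperones (-0.001506).

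By TPM the sign changed for Grik3 (2.834 with a pseudocount of 0.1, 1.773 as deposited, 2.173 rescaled), Pde4d (1.062, 0.8527 and 1.278), Rpph1 (0.2018 and 0.6987), Dnmt3a (-1.291, -1.227 and -0.767), Eif4g2 (-0.3639 and -0.3609), Lifr (-0.1775 and -0.1497), Psmd9 (-0.5751, -0.5194 and -0.07804), Baiap2 (-0.6039 and -0.5178) and Cx3cr1 (0.3435 without a filter). For the difference from chromatin it changed for Pde4d (0.228) and Lrrc4c (0.4724) in rescaled TPM and Tbr1 (-0.7134) in TPM as deposited. Depth limits genes near the floor of 3 counts. The replicates are too few for a permutation p under 0.1, and stranded counting and shared reads of near-identical genes could not be checked.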

Other observations

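Immediate early genes, which neuronal activity and growth factors induce within minutes, did not move as a block. Of 20 tested genes 11 were higher in neurons and 5 lower (median 1.5). Of the nuclear receptor genes Nr4a2 rose by 4.78, and Nr4a1 fell by 1.56. Nr4a3 gave 82.1, 71.2 and 81.5 CPM in neurons and 2 reads in stem cells, a ratio of 2031-fold (95% counting interval 562 to 16769.9). Npas4, an activity-dependent factor of neurons, gave 3.81, 4.24 and 6.81 CPM in neurons and no read in stem cells, at least 28.5-fold higher. The AP-1 genes were split, with Fosl2 higher by 4.01, Jun by 2.59 and Fos by 1.45, and Junb lower by 2.8. Fos did not pass without neuron library 3 (1.36), stem cell library 2 (1.27) or stem cell library 3 (1.4), or in rescaled TPM (0.73). Arc, a postsynaptic protein induced by activity, was at 2.88, 2.21 and 3.44 CPM in neurons and 28.9, 22.4 and 33.6 in stem cells, lower by 3.32. Ier2 fell by 4.73 and Dusp1 by 2.51. In TPM as deposited 5 of 14 tested members were higher.

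Imprinted genes went both ways, 8 of 18 higher and 8 lower. Nnat (neuronatin), a membrane protein gene of neurons and endocrine cells, gave 1408, 1415 and 1389.9 CPM in neurons and 3.98, 8.86 and 9.69 in stem cells (7.55), with another gene on the opposite strand over its whole span. Ndn (necdin) was at 221 ± 2.04 CPM against 4.81 ± 0.978 (5.52). Peg10, derived from a retrotransposon, fell by 4.76 (11.4 ± 1.02 against 308 ± 65.9 CPM), and Impact, a regulator of the Gcn2 kinase, by 2.53. Peg3 did not pass at 44.8 ± 4.76 against 43.2 ± 6.77 CPM.

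Y-linked genes differed among the neuron libraries. Eif2s3y gave 12.1, 7.58 and 2.58 CPM in neuron libraries 1, 2 and 3 and 69.2, 72.7 and 72.6 in the stem cell libraries, and Uty gave 23.8, 15.9 and 2.03 against 50.9, 46 and 50.9. Kdm5d gave 21.1, 14.7 and 2.82 against 3.12, 3.09 and 1.82. Xist gave 7.0, 13 and 31.6 CPM in the same neuron libraries and no read in stem cells, and did not pass in rescaled TPM (0.53). Libraries with less Y-linked RNA had more Xist, and the sexes of the embryos are not given in the labels. The lowest neuron library of the nucleoplasm gave 26.8 CPM of summed Y-linked genes, against 178.6 and 212.2 in the others. On chromatin the neuron values were 49.9, 247.1 and 283.8 CPM. Whether the low libraries of the fractions came from the same culture was not tested.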
